A study of Caenorhabditis elegans with 4 samples.

Results

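NHR-11 peaks on the arms of chromosome V of Caenorhabditis elegans were described from chromatin immunoprecipitation and sequencing (ChIP-seq) of L1 larvae. A peak was placed on the left arm when its midpoint lay below 7000000 on chromosome V, and on the right arm when its midpoint lay above 13900000, on genome build WS220. Position alone chose the members, and no measured height or width entered the choice. The list of peaks for the whole series held 3006 peaks, of which 614 were on chromosome V and 350 on its arms. The left arm carried 196 of them and the right arm 154, with 264 in the centre between the bounds. In the separate lists of the ChIP libraries, replicate 1 held 161 arm peaks of 1247 and replicate 2 held 134 of 1190.

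The larvae were hermaphrodites of strain OP305, which carries the unc119(ed3) mutation and the transgene wgIs305, a fusion of nhr-11 to TY1, EGFP and FLAG tags delivered with unc119. The transgene was introduced by bombardment, and ChIP and input samples share this genotype. All 4 samples, 2 from anti-GFP ChIP and 2 from input, are from this single strain, so no strain without the tagged protein stands beside them. The stage label reads L1 26dC, while the growth protocol and the design text give 20 °C. Peak height is given here as −log10 q, where q is the score that the authors' peak caller gave each peak. No read totals came with the lists, which leaves depth unknown, and the height of a peak moves with depth and with its width besides its enrichment.

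NHR-11 belongs to the nuclear hormone receptors, transcription factors that bind DNA through a zinc-finger domain and, in many members, respond to a small lipophilic ligand. This family is greatly expanded in nematodes. The arms of the C. elegans autosomes recombine more than the centres and hold more repeats and more genes of young, rapidly duplicating families. The bounds used here cut V into parts of 7, 6.9 and 7.0 Mb from left to right. Whether they match the bounds of recombination on V was not examined. Chromosome V is known for large families of chemoreceptor genes and for many nuclear hormone receptor genes. In a gene table of assembly WBcel235, 888 of 1308 protein-coding genes with sr or str chemoreceptor names were on V, as were 167 of 269 with nhr names, against 4995 of all 19983 protein-coding genes. That assembly is not the build of the peaks, so its coordinates were not used. Peaks are therefore named by position, not by gene, and no sequence is shown.

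Both arms held fewer peaks per Mb than the centre of the chromosome, and the right arm held fewer than the left. In the series list there were 28 peaks per Mb on the left arm, 22.0 on the right arm and 38.3 in the centre. Replicate 1 gave 13.4, 9.57 and 17.97 peaks per Mb in the same order, and replicate 2 gave 11.7, 7.43 and 15.8. Over the replicate lists the left arm had 12.6 ± 1.21 peaks per Mb and the right arm 8.50 ± 1.52 (mean ± SD, n = 2). The lowest left-arm value, 11.7, lay above the highest right-arm value, 9.57, so the arms did not overlap. The right arm had 0.786 times the density of the left in the series list, 0.713 times in replicate 1 and 0.634 times in replicate 2. Left arm against centre gave 0.744 ± 0.00402 and right arm against centre 0.501 ± 0.0441 over the replicates (SD, n = 2). These orders are descriptions, because peaks of a library are not replicates of each other. An exact paired permutation test over 2 libraries cannot give a two-sided p below 0.5, so none was made. The labels do not say whether the replicates came from separate cultures, so their spread may be technical. The series list is not taken as an independent sample, since how the replicates entered it is not given.

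Peaks covered 87349 bp of the left arm in the series list, or 1.25% of its 7 Mb, and 66122 bp of the right arm, or 0.945%. In replicate 1 the covered shares were 0.580% and 0.434%, and in replicate 2 they were 0.564% and 0.307%. The left arm was the more covered in each list. The centre was covered to 1.59%, 0.737% and 0.604% in the series, replicate 1 and replicate 2 lists.

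Density changed along each arm. Each arm was divided into 14 windows of 500 kb counted outward from its inner bound. On the left arm the series list had 6 to 25 peaks per window with a median of 14, and the richest window lay at 5500001 to 6000000. The neighbouring window, 6000001 to 6500000, followed with 23 peaks. Replicate 1 held 13 and 12 peaks in these windows, while replicate 2 held 8 and 15 and so was richest in the neighbouring one. The 3.5 Mb nearest the centre held 34.9 series peaks per Mb and the outer part of the left arm 21.1. Replicate 1 gave 17.1 and 9.71 for the same stretches, and replicate 2 gave 14 and 9.43. All 3 lists thus had more left-arm peaks towards the centre. The poorest left-arm windows lay from 2500001 to 3500000, with 6 and 7 series peaks, 3 and 2 in replicate 1, and 3 and 1 in replicate 2.

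The right arm showed no such order between its parts, with 21.7 series peaks per Mb in the inner 3.5 Mb and 22.3 in the rest. Replicate 1 had 9.14 and 10.00, and replicate 2 had 8 and 6.86, so the replicates ordered them differently. The right arm was rich at its inner and outer edges and sparse between. Its innermost window, 13900001 to 14400000, held 24 series peaks and 9 in each replicate list. Its outermost window, 20400001 to 20899443, held 21 series peaks, 11 in replicate 1 and 8 in replicate 2. Of these series peaks, 7 lay at 20772169 to 20786432 and 5 at 20699467 to 20712330, in local clusters described below. The poorest window of the right arm, 16900001 to 17400000, held 2 series peaks and 1 in each replicate. A dip between richer edges was not particular to the right arm. Outward of its poorest windows the left arm rose again, to 16 series peaks at 1 to 500000, with 7 in replicate 1 and 5 in replicate 2. Window counts of the replicates moved together on both arms, with Pearson's r of 0.771 on the left and 0.870 on the right over 14 windows each. Spearman's rho was 0.731 and 0.802, given as a description because the windows share their libraries.

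**Figure D1:**
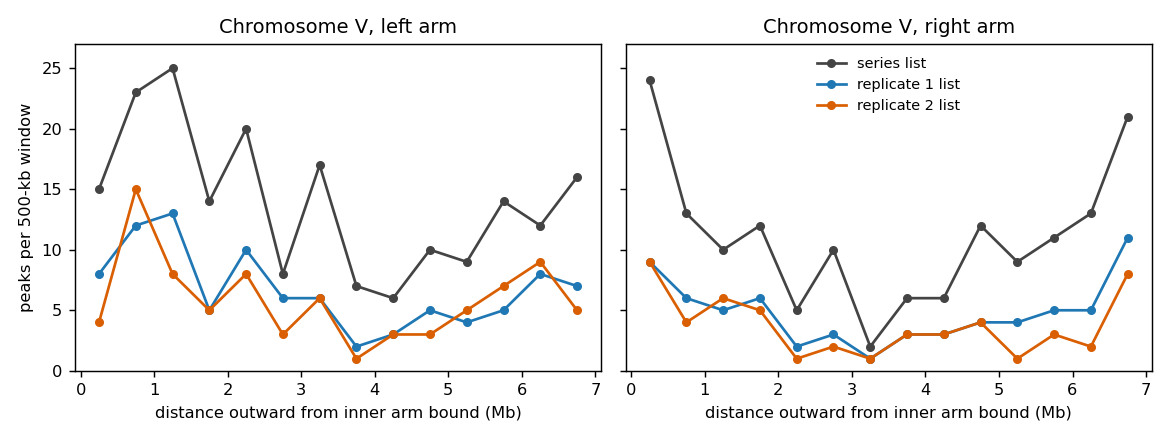
Number of peaks in each 500-kb window of the left arm and right arm of chromosome V, against distance outward from the arm's inner bound in Mb, for the series list and each replicate list (lines join windows of a list). The left arm peaks at 25 series peaks near its inner bound, falls to 6 and reaches 16 at the chromosome end. The right arm falls from 24 to 2 and rises again to 21 at the chromosome end.

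The chromosome ends themselves carried peaks. The outermost left-arm peak lay at V 8747 to 9227 and had a series height of 15.5, against 4.35 in replicate 1 and 11.4 in replicate 2. It was thus present in all 3 lists, yet the ratio of its replicate heights was further from 1 than at any other left-arm peak found in both. On the right arm the outermost series peak, at V 20899181 to 20899443, had a height of 3.91 and overlapped no replicate peak. The outermost right-arm peaks of the replicates lay further in, at 20785887 to 20786318 in replicate 1 and 20777496 to 20777928 in replicate 2.

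The bounds fell among ordinary peaks. The last peak inside the left arm, at V 6997877 to 6998639, had a height of 3.88 and was in neither replicate list. The first outside it, at 7022885 to 7023434, had 5.35 and was in replicate 1. At the other bound, the last central peak, at 13869566 to 13869900, had a height of 14.6 and was in both replicates. The first right-arm peak, at 13906186 to 13906521, had 3.04 and was in neither.

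Peaks of the arms were mostly low, with a short tail of high ones. Series heights ran from 3.00 to 91.7 on the left arm with a median of 5.26, and from 3.02 to 48.7 on the right arm with a median of 4.96. The interquartile range ran between 3.87 and 9.07 on the left and between 3.55 and 8.35 on the right. Replicate 1 had medians of 4.25 on the left and 4.65 on the right, and replicate 2 had 4.90 and 4.84. The right arm was thus the lower in the series list and in replicate 2 and the higher in replicate 1, so the arms were not ordered by median height. The replicate medians averaged 4.57 ± 0.457 on the left and 4.75 ± 0.133 on the right (SD, n = 2). The centre had a series median of 5.34 and the whole series list 5.37. The whole replicate 1 and replicate 2 lists had medians of 5.10 and 5.14.

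Heights of 10 or more were reached by 41 left-arm peaks (20.9%), 28 right-arm peaks (18.2%) and 50 central peaks (18.9%), against 23.0% of the whole list. The replicates ordered the arms the other way, on few peaks. Replicate 1 had 10 of 94 on the left (10.6%) and 9 of 67 on the right (13.4%), against 19.8% of its whole list. Replicate 2 had 9 of 82 (10.98%) and 8 of 52 (15.4%), against 21.5% of its whole list. The arms held 7 of the 100 highest series peaks (7%, with an exact 95% interval from 2.86 to 13.9%), and 44 of the first 500 (8.8%, 6.47 to 11.6%). They made up 11.6% of the list as a whole. In replicate 1 they held 8 of the 100 highest, against 12.9% of that list, and in replicate 2 they held 7, against 11.3%. Intervals here and below are exact Clopper-Pearson and cover counting error only.

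The highest arm peak lay at V 1151047 to 1152116 on the left arm, 1070 bp wide, with q = 1.834e-92. Its series height was 91.7, replicate 1 gave 48.0 and replicate 2 gave 44.1, and it ranked 16, 16 and 18 in those lists. The next lay at 6224192 to 6225686, with heights of 77.9, 37.6 and 41.0. Beside it, at 6226922 to 6230376, a peak of 3455 bp reached 59.9, 27.1 and 29.6 and was the widest of the left arm. The fourth, at 5049325 to 5050172, reached 52.3, 25.3 and 29.6. These 4 were the left-arm peaks among the 100 highest of the series, and the replicates lay close together at each of them.

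Below them the left arm dropped to 33.1 at 6220824 to 6223950, a peak of 3127 bp. There the replicates parted, with 15.4 in replicate 1 and 7.38 in replicate 2, where the stretch was called as 2 peaks. The sixth, at 730963 to 731768, had heights of 24.1, 13.6 and 13.2. The remaining 4 of the 10 highest began at 6100441, 3870346, 5844191 and 5505067, with series heights from 18.9 to 22.4. Their replicate 1 heights ran from 9.32 to 12.3 and their replicate 2 heights from 8.29 to 13.8.

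The right arm had no peak as high as the 4 highest of the left. Its highest lay close to the chromosome end at V 20773361 to 20774748, 1388 bp wide, with q = 2.001e-49. Its series height was 48.7, with 24.0 in replicate 1 and 25.1 in replicate 2. The next were at 14055001 to 14055364, with 43.4, 22.7 and 19.8, and at 14685452 to 14686137, with 41.9, 24.2 and 21.5. These 3 were the right-arm peaks among the 100 highest of the series. The first of this pair was 364 bp wide, near the median width of the arm. At 14199959 to 14200450 the heights were 35.0, 22.1 and 14.4, with replicate 1 the higher.

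The widest arm peak of all spanned 4319 bp at V 18720357 to 18724675. Its series height was 34.2, and replicate 1, with 2 peaks there, gave 15.0 while replicate 2 gave 7.44. Its neighbour at 18716422 to 18718352 was also wide, at 1931 bp, but had a height of 4.12 and was in neither replicate list. The other 5 of the 10 highest right-arm peaks began at 19528896, 15766161, 13909053, 18967548 and 19522633. Their series heights ran from 19.3 to 24.6, their replicate 1 heights from 8.42 to 14.3 and their replicate 2 heights from 9.39 to 11.5. All 20 of these highest arm peaks were found in both replicate lists.

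**Figure D2:**
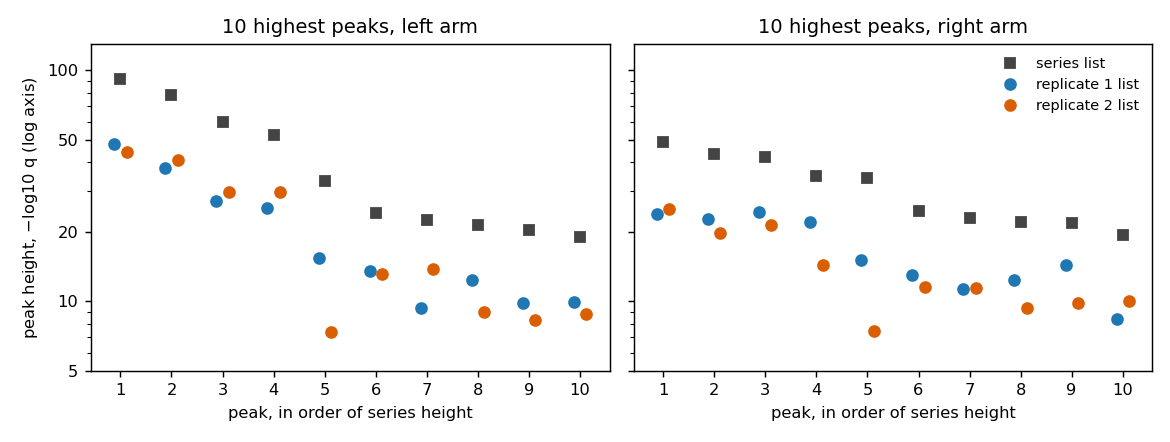
Heights of the 10 highest series peaks of the left arm and the right arm, as −log10 q on a log axis, in the series list (squares) and in the replicate 1 and replicate 2 lists (circles). The left arm starts at 91.7 and the right arm at 48.7, and on each arm the fifth peak has a replicate 2 height near 7.4 that lies well below its replicate 1 height.

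Widths were alike on both arms. The median was 373 bp on the left and 355.5 bp on the right in the series list, 363.5 and 377 bp in replicate 1, and 378 and 369 bp in replicate 2. Which arm had the wider median thus differed between lists. Higher peaks were wider, with a median of 555 bp on the left and 503 bp on the right for heights of 10 or more, against 240 and 215 bp for heights below 4. Spearman's rho of width with height was 0.623 over the 196 left-arm peaks and 0.604 over the 154 right-arm peaks, a description across peaks of a list. Peaks wider than 1000 bp numbered 9 on the left and 5 on the right. The next widest of the right arm, after the wide pair already given, lay at 20707753 to 20709223 with 1471 bp and heights of 11.1, 5.50 and 4.34.

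Some series peaks were very short. Under 50 bp there were 5 on the left arm, from 3 to 44 bp, and 7 on the right arm, from 3 to 41 bp. Their heights lay between 3.01 and 4.57, and 0 of the 12 were found in a replicate list.

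Support in the replicate lists was counted as an overlap of at least 1 bp. Both replicates held 60 of the 196 left-arm series peaks (30.6%, exact 95% interval 24.2 to 37.6%). They held 40 of 154 on the right arm (26.0%, 19.2 to 33.6%) and 84 of 264 in the centre (31.8%, 26.2 to 37.8%). Over the whole series list the share was 28.4%, which lies inside all 3 intervals. At least 1 replicate list held 107 left-arm peaks (54.6%, 47.3 to 61.7%) and 73 right-arm peaks (47.4%, 39.3 to 55.6%), against 49.5% of the whole list. The shares of the arms were therefore near that of all peaks. Replicate 1 alone held 29 left-arm and 22 right-arm peaks, and replicate 2 alone held 18 and 11. Neither list held 89 on the left and 81 on the right.

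Height separated the supported peaks from the others on both arms. Median series height was 11.99 for the 60 left-arm peaks found in both and 3.78 for the 89 found in neither. On the right arm the medians were 12.1 and 3.62. Of peaks with a height of 10 or more, 41 of 41 on the left were in both replicate lists (100%, exact 95% interval 91.4 to 100%) and 27 of 28 on the right (96.4%, 81.7 to 99.9%). Between 6 and 10 the shares were 40.5% of 42 and 36.4% of 33. Between 4 and 6 they were 1.82% of 55 and 2.70% of 37, and below 4 they were 1.72% of 58 and 0 of 56, where the upper limit was 6.38%. Over the whole list the shares from the highest class to the lowest were 92.5%, 33.1%, 0.771% and 0.219%. Part of this is built in, because each list holds only peaks with q below 0.001 and a low peak is more easily lost from a shorter list.

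**Figure D3:**
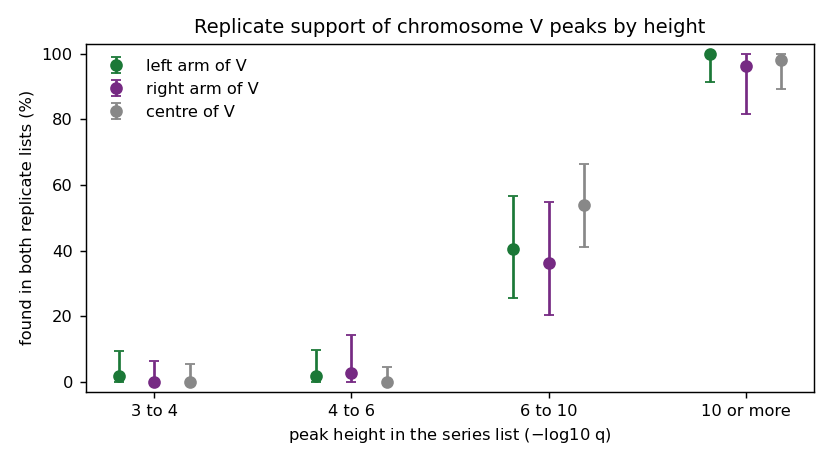
Share of series peaks found in both replicate lists, in percent, by height of the series peak (−log10 q), for the left arm, the right arm and the centre of chromosome V, with exact 95% intervals for counting error. Shares rise from below 3% under a height of 6 to over 96% at 10 or more, and the intervals of the 3 regions overlap in every height class.

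The peak of 10 or more that was not in both lists lay on the right arm at V 14848291 to 14849039. Its height was 13.2 in the series list and 8.76 in replicate 1, and no replicate 2 peak overlapped it. The highest left-arm peak found in neither replicate was at 1626057 to 1626530 with a height of 7.09, and the highest such right-arm peak was at 15663866 to 15664525 with 7.97.

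Low series peaks found in both replicates were few, and a pair of them were out of step with their replicate heights. At V 264905 to 266014 on the left arm the series height was 3.85, while replicate 1 had 11.2 and replicate 2 had 8.35 over almost the same 1110 bp. At 5284006 to 5285459 the series height was 4.80, while the replicates had 10.4 and 9.001. Over all 60 left-arm and 40 right-arm peaks found in both, the series height divided by the sum of the replicate heights had a median of 1.02 and 1.03. Over the whole list 5 of 854 peaks found in both had a series height below each replicate height, so these 2 were among 5, with 0 on the right arm and 0 in the centre. These peaks were singled out after their values were seen. The cause was not tested.

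Heights of the supported peaks were similar in the replicates. Replicate 1 against replicate 2 gave a median log2 ratio of heights of 0.03 on the left (SD 0.50 over 60 peaks) and 0.07 on the right (SD 0.43 over 40). Replicate 1 was the higher at 31 of 60 left-arm and 22 of 40 right-arm peaks. Across these peaks Pearson's r on log heights was 0.830 on the left and 0.859 on the right, and Spearman's rho was 0.713 and 0.755. These describe peaks that share their libraries. Only peaks called in both lists could enter, which by itself limits how far their heights can part. Peaks called in a single replicate are left out, such as V 14848291 to 14849039 with 8.76 in replicate 1. A difference of more than 2-fold occurred at 4 left-arm peaks and 1 right-arm peak. On the left the largest ratio was at 8747, with a log2 value of -1.38. Next came V 5790534 to 5791166, where replicate 1 had 3.38 and replicate 2 had 8.31, and 3874301 to 3874683, where they had 6.92 and 3.07. The right-arm peak was the widest one, beginning at 18720357, with a log2 ratio of 1.01.

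**Figure D4:**
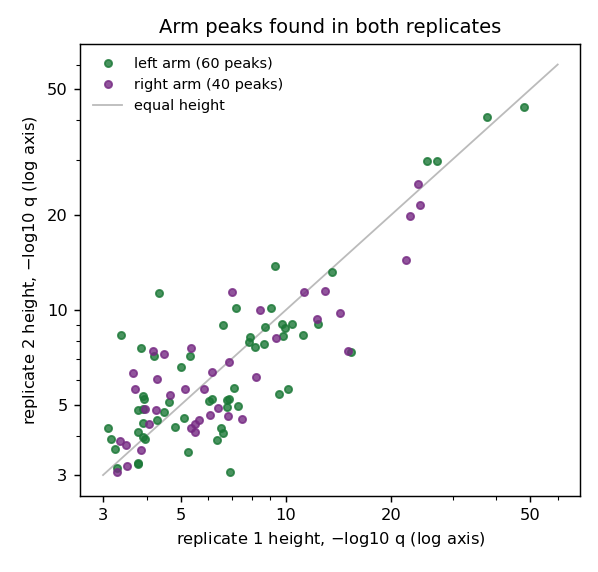
Height in replicate 2 against height in replicate 1, both as −log10 q on log axes, for the 60 left-arm and 40 right-arm peaks found in both replicate lists (grey line: equal height). Points scatter on both sides of the line, with log2 ratios from -1.38 to 1.17 on the left arm and from -0.83 to 1.01 on the right arm.

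Seen from the replicate lists, nearly every arm peak was in the series list. On the left arm 89 of 94 replicate 1 peaks and 79 of 82 replicate 2 peaks overlapped a series peak, and on the right arm 63 of 67 and 51 of 52 did. As shares these were 94.7% and 96.3% on the left and 94.0% and 98.1% on the right, against 97.4% of the whole replicate 1 list and 96.97% of the whole replicate 2 list. The replicate peaks without a series peak were low, at most 3.49 on the left arm in either list and 4.15 and 3.498 on the right. The highest of these in replicate 1 lay at V 6590041 to 6590199 on the left and at 18400302 to 18400687 on the right. In replicate 2 they lay at 534135 to 534531 on the left and 14769378 to 14769745 on the right. The last of these was called in both replicates, at 14769375 to 14769747 in replicate 1 with a height of 3.64 and with 3.498 in replicate 2, but no series peak overlapped it. Between the replicates themselves, 60 of 94 replicate 1 left-arm peaks (63.8%, exact 95% interval 53.3 to 73.5%) and 41 of 67 on the right arm (61.2%, 48.5 to 72.9%) overlapped a replicate 2 peak. For the whole replicate 1 list the share was 69.8%. In the other direction, 61 of 82 replicate 2 left-arm peaks (74.4%, 63.6 to 83.4%) and 41 of 52 on the right arm (78.8%, 65.3 to 88.9%) overlapped a replicate 1 peak, against 73.7% of that whole list. The order of the arms thus depended on the direction, and the intervals of the arms overlapped in each.

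Local clusters of peaks were present on both arms. A cluster was a run of at least 3 peaks with neighbours no more than 10 kb apart. The left arm had 16 clusters with 69 of its 196 peaks (35.2%) and the right arm 13 clusters with 53 of its 154 (34.4%). The centre had 28 clusters with 43.6% of its peaks. In replicate 1 the clusters numbered 5 on the left and 3 on the right, with 19.1% and 17.9% of the peaks. In replicate 2 they numbered 6 and 2, with 22 of 82 peaks (26.8%) and 6 of 52 (11.5%). Denser lists form more such runs whatever the arrangement, so counts and shares are not compared between lists or regions. Of clustered peaks, 36.2% on the left (exact 95% interval 24.99 to 48.7%) and 28.3% on the right (16.8 to 42.3%) had a peak in both replicates. For the other peaks of each arm the shares were 27.6% (20.0 to 36.2%) and 24.8% (16.7 to 34.3%), and the intervals overlapped.

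The largest cluster of either arm lay on the left at V 6213764 to 6247701, with 10 peaks in 33.9 kb. It held 3 of the 5 highest peaks of the arm side by side, and 34.0% of its length lay in peaks. Their series heights were 33.1, 77.9 and 59.9, and between the last pair stood a smaller peak at 6226067 to 6226648 with heights of 11.3, 3.89 and 4.87. Towards the other end of the cluster, the peaks at 6244314 and 6246396 reached 12.3 and 15.9 in the series list. Both replicates had 7 of the 10 peaks, replicate 2 alone had 1, and 2 were in neither.

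Other left-arm clusters were built of lower peaks. The 7 peaks at V 4844635 to 4871486 had heights from 4.34 to 13.96, and 2 were found in both replicates. Those at the ends of this run were the 2 that were. The 6 peaks at 2126215 to 2135756 lay in 9.54 kb and reached 17.0. Another 6 peaks, at 5838695 to 5848238, reached 20.4. At 723936 to 731768, 4 peaks stood in 7.83 kb with heights of 14.5, 18.2, 4.27 and 24.1, and 3 of them were found in both replicates.

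On the right arm the largest cluster lay near the chromosome end at V 20772169 to 20786432, with 7 peaks in 14.3 kb and 41.9% of its length in peaks. It held the highest peak of the arm, and the other 6 had heights from 3.13 to 8.69. Replicate 1 held 6 of the 7 but replicate 2 only 2, those at 20773361 and 20777418. The lists thus differed in their calls at some lower peaks of this cluster. Those found in replicate 1 only had heights from 3.38 to 5.02 in that list. Whether enrichment at them differed between the replicates was not tested. At 20777418 the replicate heights were 4.06 and 4.36. A second cluster near that end, at 20699467 to 20712330, had 5 peaks reaching 12.2. Its peaks at 20706771 and 20707753 overlapped the same replicate 2 peak, and the latter overlapped a further replicate 2 peak as well.

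The other right-arm clusters with most peaks lay at V 14846605 to 14855756, 19519705 to 19535019 and 13906186 to 13909864. The first held 5 peaks, among them the one of height 13.2 found in replicate 1 only. The second held 5 peaks, of which those at 19522633 and 19528896, with 19.3 and 24.6, were found in both replicates and the other 3 in neither. The third held 4 peaks in 3.68 kb beside the inner bound, of which 1, with a height of 21.95, was found in both replicates.

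**Figure D5:**
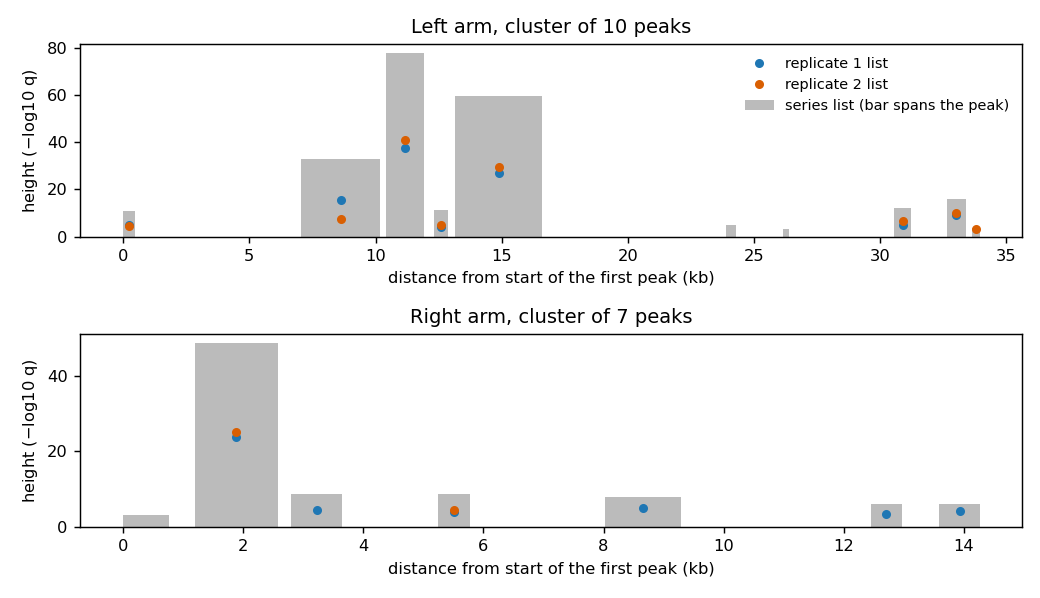
Peaks of the cluster of 10 on the left arm (top) and of the cluster of 7 on the right arm (bottom), by distance from the start of the first peak in kb. Bars span the series peaks and show their height (−log10 q), and points give the height of the overlapping replicate peak. On the left, bars of 33.1, 77.9 and 59.9 stand together, and on the right 4 of the 7 peaks have a replicate 1 point but no replicate 2 point.

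Empty stretches took up much of both arms. Stretches of at least 100 kb with no series peak numbered 18 on each arm and made up 40.0% of the left arm and 47.0% of the right, against 22.0% of the centre. Stretches of at least 200 kb numbered 3 on the left, 5 on the right and 0 in the centre. The replicate lists, with fewer peaks, had longer ones. The longest was 488.6 kb on the left and 762.7 kb on the right in replicate 1, and 524.1 and 762.6 kb in replicate 2. Stretches of at least 200 kb made up 34.9% of the left arm and 52.2% of the right in replicate 1, and 39.6% and 58.3% in replicate 2. The centre was not free of them in the replicate lists. It had 4 in replicate 1 (14.8% of the centre, the longest 296.6 kb) and 8 in replicate 2 (32.1%, the longest 490.6 kb). The right arm thus had a larger empty share than the left arm in each list. Fewer peaks per Mb leave longer stretches whatever their arrangement, and these shares were not separated from the densities given above. The median stretch without a series peak was 14441 bp on the left arm, 21044.5 bp on the right and 13882 bp in the centre.

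The longest empty stretch of the left arm ran from V 2260276 to 2600565, over 340.3 kb. No replicate peak lay inside it, and the peak that closed it, at 2600566 to 2600888, had a height of 12.5 and was found in both replicates. The next ran from 1875865 to 2126214 (250.35 kb) and ended at the cluster of 6 peaks that begins at 2126215. The others were 238.9 kb from 2803592, 193.6 kb from 5311517 and 188.4 kb from 3391392. Of these 5, the one from 5311517 held a replicate 1 peak with a height of 3.02, and the other 4 held none from either replicate.

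On the right arm the 3 longest empty stretches of the series list were of nearly equal length. They ran from V 16001050 to 16352334 (351.3 kb), from 17192527 to 17538305 (345.8 kb) and from 19174700 to 19519704 (345.0 kb). The next were 292.3 kb from 18087209 and 226.3 kb from 16966006. Inside these 5, the replicate lists had 1 peak, a replicate 1 peak of height 3.70 at 19473084 to 19473282.

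The stretches from 17192527 and from 16966006 lay in a longer one that both replicate lists shared. From V 16966000 to 17728630, 762.6 kb of the right arm held no peak of either replicate. The series list had 3 peaks there, at 17192303, 17538306 and 17699304, with heights of 3.02, 6.19 and 3.12. On the left arm the longest stretch free of peaks in both replicates was 474.2 kb, from 2672974 to 3147216, and it also held 3 series peaks, of heights 3.35 to 5.79. In the centre the longest was 296.6 kb, from 7431345 to 7727932. Which sequences lie in these stretches, and how many reads could be placed there, was not analysed here.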

How the data were processed

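Per the labels' protocols, L1 larvae were crosslinked with 2% formaldehyde before anti-GFP ChIP, and part of each lysate served as input. The analysis used 3 peak lists, from each ChIP replicate and from the series; no input file was used. The lists name PeakSeq as their source and WS220 as their build, per the file headers and rows. Aligner, versions and the use of input and replicates were not given in the sources used here. The deposited score was taken for a q-value. Multiplied by rank number it never fell from one rank to the next. Any score that rises with rank would show this too, so it cannot decide what the score is. Rank numbers were missing for 12 series peaks, 3 of replicate 1 and 1 of replicate 2, which were not analysed here.

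Height was computed as −log10 q. Arm length ran from the chromosome start or the bound to the other bound or the last peak end in any list, 20899443. Where a peak overlapped several replicate peaks, the one with the lowest q gave its replicate height. Values were described without tests. The peaks named were the 10 highest and 3 widest of each arm, those at bounds and ends, the 5 largest clusters and 5 longest empty stretches of each arm, and the highest peaks lacking support. The dividing of the arms at 3.5 Mb, the height classes, narrow peaks, stretches shared by replicates and replicate extremes were added after values were seen. Members and lists were chosen with earlier results of these data known. The counting code was tested on simulated data. Alternatives covered the score threshold, bounds, merging, overlap rule, cluster distance and each replicate left out. Tools were Python 3.11.15, pandas 2.3.3, NumPy 2.4.6, matplotlib 3.10.9 and SciPy 1.17.1.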

Additional observations from a re-analysis of the deposited data

How the results depend on the processing

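Of 72 alternatives over 11 results, 41 stayed within the spread of the replicates, the exact interval or 1.5 times the count, and 31 moved beyond it. The ratio of right to left density stayed below 1 in every alternative run. It was 0.718 with both bounds moved 500 kb towards the ends, 0.847 with them moved towards the centre, and 0.634 to 0.713 with either replicate left out, against 0.786. Except for the shares found in replicates, leaving out a replicate meant reading the other replicate's own list. Those values repeat ones given above and are no separate check. With scores below 1e-05 only, the median height was 8.38 on the left arm and 8.50 on the right, which turned their order. Leaving out a replicate gave 4.25 to 4.90 on the left and 4.65 to 4.84 on the right. The share found in both replicates became 55.8% on the left and 52.6% on the right with scores below 1e-05. With support asked of the remaining replicate only, it was 39.8 to 45.4% on the left and 33.1 to 40.3% on the right. Stricter lists and single-replicate lists hold fewer peaks by construction, which lengthens empty stretches and thins clusters. With scores below 1e-05, clusters numbered 7 on the left and 3 on the right. The longest empty stretch was then 502.4 kb on the left and 572.3 kb on the right, against 340.3 and 351.3 kb, and leaving out a replicate gave 488.6 to 524.1 kb and 762.6 to 762.7 kb. No paired analysis was possible because the replicate numbers are shared by ChIP and input, and of these only ChIP had lists to compare. With depth unknown, its limit on low peaks cannot be given.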
